A study of Mus musculus with 12 samples.

Results

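Transcripts of 8 genes of megakaryocytes and platelets were followed through RNA-Seq values of bone-forming cells: *Pf4*, *Ppbp*, *Itga2b*, *Gp9*, *Gp1ba*, *Gp1bb*, *Gp6* and *Treml1*. They were chosen because *Pf4*, *Ppbp* and *Itga2b* were raised in 2 of the 3 PTH libraries, so their values in that comparison are described without a test. The 8 genes stood among 23284 genes listed for sorted osteoblasts and 24346 listed for MC3T3-E1 cells, and all 8 had a row in the values of all 12 libraries, in some of them at 0.

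The study asked how intermittent parathyroid hormone acts on osteoblasts, and what secretory leukocyte protease inhibitor, the product of *Slpi*, does in them. In vivo, female mice of the Col2.3-ECFP line, 12 weeks old, in which a type I collagen promoter fragment drives enhanced cyan fluorescent protein, received vehicle (3 libraries) or PTH (1-34) at 40 µg/kg per day on 5 days a week for 3 weeks (3 libraries). Viable cells negative for lineage markers and for CD45 but positive for ECFP (7AAD-Lin-CD45-ECFP+) were sorted 24 h after the last injection; both groups carried the transgene, and the antibodies of the lineage mix are not given in the sources used here. In vitro, MC3T3-E1 cells, a clonal osteoblastic line from mouse, carried an empty pMX retroviral vector (mock, 3 libraries) or the same vector with *Slpi* (3 libraries), both kept under puromycin, and *Slpi* stood at 377, 396 and 386 FPKM in mock and at 2105, 1973 and 1848 FPKM in *Slpi* cells. Values are FPKM, sequenced fragments scaled to the length of the transcript and the depth of the library.

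Megakaryocytes are large marrow cells that shed platelets into the blood. Platelets carry much of the RNA and protein their parent cell made, including chemokines stored in alpha granules, the fibrinogen receptor integrin alpha-IIb beta-3, the von Willebrand factor receptor GPIb-IX-V, and the collagen receptor GPVI. In marrow, megakaryocytes lie against sinusoids, and their growth factors include thrombopoietin. CD45 marks leukocytes, and lineage cocktails differ in whether they hold an antibody against platelets or megakaryocytes.

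The labelled cell type was checked first. The osteoblast genes *Bglap*, *Ibsp* and *Sp7* were present in every sorted library, with *Bglap* between 6963 and 14280 FPKM. *Col1a1* and *Col1a2* were listed at 0 in vehicle replicate 3 and all 3 PTH libraries but at 24170 FPKM or more in the other vehicle libraries, so an exact 0 in these files can be a failed estimate, and a 0 below means only that the gene is listed at 0. Relative depth, read from the smallest steps between low FPKM values, ran from 0.787 to 1.40 across the sorted libraries, with vehicle replicate 1 set to 1. PTH replicate 3 was the lowest PTH library in each of the 8 genes, and PTH replicate 2 held far more heart muscle transcript than the others, with *Myh6* at 179 FPKM against at most 0.889 FPKM in any other sorted library. The methods state that replicates were from different mice, without saying how many mice made a library.

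The chemokine genes *Pf4* and *Ppbp*, whose products are platelet factor 4 and pro-platelet basic protein, were the most abundant of the 8 in PTH replicates 1 and 2. In the GRCm38 annotation they are neighbours on the plus strand of chromosome 5, *Ppbp* at chr5:90768518-90770063 and *Pf4* at chr5:90772435-90773383, with 2371 bases between them. Windows of 250 bases upstream of the RefSeq start (GRCm38.p6) of these genes and of 2 glycoprotein genes are shown as examples. All 8 genes were highest in PTH replicates 1 and 2, so that pattern did not single out the windows shown. Capitals mark GATA letters (AGATAA or AGATAG or TGATAA or TGATAG) and ETS letters (AGGAAG or CGGAAG), read on both strands. A match on the other strand thus appears as its reverse complement.
Pf4, chr5:90772185-90772434, plus strand: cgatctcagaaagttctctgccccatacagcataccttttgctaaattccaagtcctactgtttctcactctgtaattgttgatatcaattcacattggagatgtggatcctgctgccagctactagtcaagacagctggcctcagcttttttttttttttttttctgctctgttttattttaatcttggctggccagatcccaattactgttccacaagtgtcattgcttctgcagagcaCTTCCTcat
Ppbp, chr5:90768268-90768517, plus strand: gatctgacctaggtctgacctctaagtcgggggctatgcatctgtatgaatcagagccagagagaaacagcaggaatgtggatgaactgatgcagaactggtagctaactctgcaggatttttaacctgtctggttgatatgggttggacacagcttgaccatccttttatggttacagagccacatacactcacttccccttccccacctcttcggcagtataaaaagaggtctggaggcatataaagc
Itga2b, chr11:102469884-102470133, minus strand: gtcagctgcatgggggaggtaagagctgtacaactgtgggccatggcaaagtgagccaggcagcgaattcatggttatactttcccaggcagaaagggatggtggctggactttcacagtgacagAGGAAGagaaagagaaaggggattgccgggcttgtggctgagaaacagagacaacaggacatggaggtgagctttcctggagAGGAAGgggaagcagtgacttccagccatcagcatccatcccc
Gp1ba, chr11:70638872-70639121, plus strand: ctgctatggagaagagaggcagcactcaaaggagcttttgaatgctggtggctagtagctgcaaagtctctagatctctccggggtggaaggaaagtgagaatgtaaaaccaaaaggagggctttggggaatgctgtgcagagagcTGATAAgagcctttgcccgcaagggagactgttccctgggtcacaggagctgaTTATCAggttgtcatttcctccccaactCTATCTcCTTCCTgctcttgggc
GATA letters were found in the windows of 3 of the 8 genes (*Gp1ba*, *Gp1bb* and *Gp6*), against 26.5% of all 32851 windows, and ETS letters in 5 of the 8 (*Pf4*, *Itga2b*, *Gp9*, *Gp1ba* and *Gp1bb*), against 39.2%. *Gp1ba* held 3 GATA matches, the *Ppbp* window held neither motif, and the NF-E2 letters TGAGTCA were in none of the 8 windows and in 4.46% of all windows. The RefSeq start of *Itga2b* differs from the start in the annotation used for gene positions, where the gene is at chr11:102453297-102470122. Most of its window, with both ETS matches, thus lies inside the gene in that annotation. The motifs did not overlap one another in these windows, and a match is a description of letters only.

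*Pf4* was at 1.65, 3.14 and 1.85 FPKM in vehicle replicates 1, 2 and 3. In PTH replicates 1, 2 and 3 it was at 136, 105 and 0.587 FPKM. The first 2 PTH libraries were far above every vehicle library, and the third was below all of them. *Pf4* ranked 408 and 559 among all listed genes in PTH replicates 1 and 2, and between 8966 and 11687 in the other 4 sorted libraries. If the smallest step in its FPKM is 1 read, the vehicle values stand for 2, 3 and 3 reads and the PTH values for 184, 161 and 1 reads. On that assumption the vehicle libraries fix the level poorly. These, and the read numbers below, are the fewest that fit the values, and true numbers can be multiples of them.

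*Ppbp* was listed at 0, 0.456 and 0 FPKM in vehicle libraries and was at 23.3, 20.2 and 1.15 FPKM in PTH libraries. By the same steps these were 0, 2 and 0 reads against 145, 141 and 9 reads. All 3 PTH libraries were above all 3 vehicle libraries, PTH replicate 3 by little. *Pf4* exceeded *Ppbp* 5.84-fold and 5.23-fold in PTH replicates 1 and 2, a like proportion, while in PTH replicate 3 *Pf4* was at 0.510 of the *Ppbp* level. The nearby chemokine genes did not share the level, though *Cxcl5* and *Cxcl3* were above 0 only in PTH replicates 1 and 2. *Cxcl5* was listed at 0 in vehicle libraries and was at 0.773, 0.690 and 0 FPKM in PTH libraries. *Cxcl3* was listed at 0 in vehicle libraries and was at 0.521, 0.155 and 0 FPKM in PTH libraries. *Cxcl1*, a neutrophil attractant, was between 24.1 and 36.6 FPKM in all 6.

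*Itga2b*, on chr11:102453297-102470122, minus strand, makes the alpha-IIb chain of the fibrinogen receptor, which in adults is confined mainly to the megakaryocyte lineage and early progenitors. It was at 0.145, 0.308 and 0.181 FPKM in vehicle libraries and at 13.2, 12.3 and 0.484 FPKM in PTH libraries. By the same steps these were 3, 5 and 5 reads against 305, 319 and 14 reads. The groups did not overlap, although PTH replicate 3 exceeded the highest vehicle library only narrowly. Its partner chain gene *Itgb3*, which osteoclasts also use, was at 2.70, 1.43 and 2.22 FPKM with vehicle and at 10.9 and 8.15 FPKM in PTH replicates 1 and 2, while PTH replicate 3 lay within the vehicle range. *Itgb3* was 0.825 and 0.661 of the *Itga2b* level in PTH replicates 1 and 2, and between 4.55 and 18.5 times it in the other 4 sorted libraries.

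**Figure D1:**
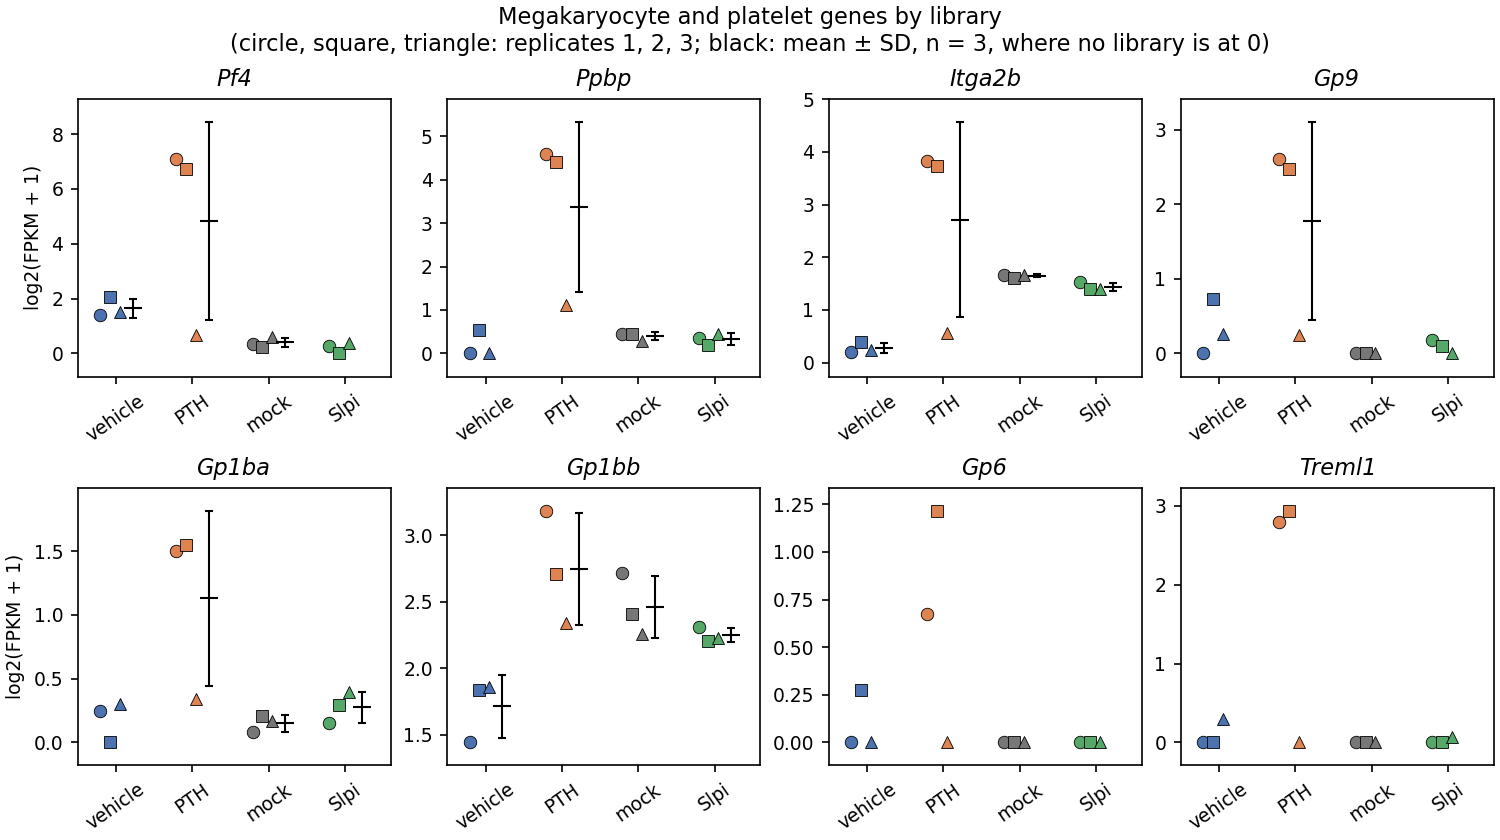
Each panel plots 1 gene as log2(FPKM + 1) in 12 libraries, grouped as vehicle and PTH (sorted osteoblasts) and mock and Slpi (MC3T3-E1 cells); circles, squares and triangles are replicates 1, 2 and 3, and black marks give the mean and SD (n = 3) where no library was listed at 0. In every panel PTH replicates 1 and 2 lie above the 3 vehicle libraries and PTH replicate 3, and only Itga2b and Gp1bb stand above 1 FPKM (1 on this axis) in MC3T3-E1 cells.

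The genes of the GPIb-IX complex, through which platelets catch von Willebrand factor under flow, were lower in level and were likewise highest in PTH replicates 1 and 2. *Gp9* (chr6:87778072-87779768, plus strand) was at 0, 0.659 and 0.194 FPKM with vehicle and at 5.10, 4.55 and 0.185 FPKM with PTH. *Gp1ba* (chr11:70639122-70642036, plus strand), which makes the ligand-binding alpha chain, was at 0.186, 0 and 0.232 FPKM with vehicle and at 1.83, 1.93 and 0.265 FPKM with PTH. PTH replicate 3 lay between vehicle libraries for *Gp9* and just above them for *Gp1ba*.

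*Gp1bb*, on chr16:18620317-18622403, minus strand, makes the beta chain and differed from the rest. It was at 1.72, 2.57 and 2.62 FPKM with vehicle and at 8.08, 5.55 and 4.07 FPKM with PTH, so that all 3 PTH libraries were above all vehicle libraries and PTH replicate 3 lay between replicate 2 and the vehicle range. In the annotation, 91.1% of its 2087 exonic bases are also exonic in *Sept5* (chr16:18620502-18629954), a septin gene on the same strand, and the counting cannot be assumed to have separated them. The row that carries the date form 5-Sep in place of that symbol was at 14.8, 16.6 and 21.3 FPKM with vehicle and at 32.5, 30.3 and 39.0 FPKM with PTH. The value of *Gp1bb* is therefore uncertain, and what reads of the septin gene added to it was not tested.

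*Gp6* and *Treml1* were the scarcest in vehicle libraries. *Gp6* (chr7:4363965-4397744, minus strand), the signalling receptor for collagen, was at 0, 0.210 and 0 FPKM with vehicle and at 0.593, 1.32 and 0 FPKM with PTH. By the same steps these were 0, 1 and 0 reads against 4, 10 and 0 reads. *Treml1* (chr17:48359916-48367176, plus strand), a receptor held in alpha granules and shown on activated platelets, was at 0, 0 and 0.231 FPKM with vehicle and at 5.94, 6.66 and 0 FPKM with PTH. For both genes PTH replicates 1 and 2 were above all other sorted libraries, and PTH replicate 3 was listed at 0.

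Across the 8 genes, the level in PTH replicate 1 divided by that in PTH replicate 2 ran from 0.448 (*Gp6*) to 1.46 (*Gp1bb*), with a median of 1.10. The summed FPKM of the 8 was 3.69, 7.34 and 5.31 in vehicle libraries and 194, 158 and 6.74 in PTH libraries. *Pf4* made up 70.1% and 66.7% of the sum in PTH replicates 1 and 2 and 8.72% in PTH replicate 3, where *Gp1bb* made up 60.3%. Which cells or platelets held these transcripts was not tested. In this bulk RNA a library with more of them and one with more of this RNA in each cannot be told apart.

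On log2(FPKM + 1), which understates the change of low genes, the difference between PTH and vehicle means was 3.18 for *Pf4*, 3.19 for *Ppbp*, 2.44 for *Itga2b*, 1.81 for *Treml1*, 1.45 for *Gp9*, 1.03 for *Gp1bb*, 0.95 for *Gp1ba* and 0.54 for *Gp6*. Their median was 1.63, beside a median of 0.01 over all 13004 genes tested, and it was 2.49 without PTH replicate 3. Without that library the differences, in the same order of genes, were 5.26, 4.32, 3.51, 2.77, 2.21, 1.24, 1.34 and 0.85. All 8 had PTH replicates 1 and 2 above the other 4 sorted libraries, a pattern that 7.88% of all tested genes had. In 4 of the 8 (*Ppbp*, *Itga2b*, *Gp1ba* and *Gp1bb*) every PTH library was above every vehicle library, beside 19.5% of tested genes. In 6 of the 8 the difference was at least 1, beside 1.85% of tested genes. The genes were picked on this comparison, and 6 of the 8 reached an FPKM of 1, the minimum for the fit, only in PTH libraries, so nothing is read from these counts.

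Other genes of the lineage were taken from 4 lists of 35 genes in all, of which 34 were in the files and 29 passed the minimum. In the limma fit over 13004 genes, 4 of the 29 were higher with PTH at a Benjamini-Hochberg adjusted p under 0.05 and 0 were lower, beside 6.38% of all tested genes higher and 8.85% lower. At an unadjusted p under 0.05, 9 were higher and 0 lower, beside 16% and 17.5% of all tested genes. At such a p and a change of at least 2-fold, 7 were higher, beside 1.24% of all tested genes. The median log2 difference of the 29 was 0.55, beside 0.01 over all tested genes. In 21 of the 29, PTH replicates 1 and 2 were above the other 4 libraries, beside 7.88% of all tested genes. Since the 29 genes share the comparison and the libraries that chose the 8, they are not independent evidence. The count of 4 called higher moved with single libraries. It was 15 without PTH replicate 3, where 3.84% of all genes were called higher, and it was 0 without PTH replicate 1, vehicle replicate 1 or vehicle replicate 2 and 1 without PTH replicate 2 or vehicle replicate 3. Over all 13004 genes, only 1 and 0 were called in either direction without vehicle replicate 1 or 2.

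Of the 8 receptors tested, 0 were called with all 6 libraries and 6, all higher, without PTH replicate 3. In the fit without that library 3.84% of all tested genes were called higher. *F2rl2*, a cofactor for thrombin signalling on mouse platelets, was at 0, 0 and 0.0518 FPKM with vehicle and at 5.08, 4.20 and 0.0989 FPKM with PTH, a log2 difference of 1.68 ± 0.62 (SE, n = 3 per group, limma adjusted p = 0.107). The difference for *Itgb3* was 1.20 ± 0.47 (SE, n = 3 per group, limma adjusted p = 0.125). *Clec1b*, a podoplanin receptor chosen for mention after its values were seen, was listed at 0 in all vehicle libraries and at 2.91, 2.12 and 0 FPKM with PTH.

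Granule genes held 2 of the 4 calls. *F5*, coagulation factor V, was at 0.934, 0.469 and 0.325 FPKM with vehicle and at 3.54, 3.12 and 1.26 FPKM with PTH, a log2 difference of 1.16 ± 0.31 (SE, n = 3 per group, limma adjusted p = 0.0475). *Rab27b*, a small GTPase that serves granule formation and secretion, was at 4.71, 5.84 and 5.59 FPKM with vehicle and at 11.3, 9.70 and 7.34 FPKM with PTH, a log2 difference of 0.70 ± 0.17 (SE, n = 3 per group, limma adjusted p = 0.0393). For both, the PTH libraries were all above the vehicle libraries, with PTH replicate 3 the lowest of the PTH group. *F5* reached 1 FPKM, the minimum for the fit, in PTH libraries alone, so it entered the test through the group in which it was high. *F13a1*, the A chain of factor XIII, which macrophages and bone cells also make, was between 2.94 and 3.63 FPKM with vehicle and between 2.57 and 5.68 FPKM with PTH, and the groups overlapped. *Mmrn1*, multimerin of alpha granules, was at 0.0707, 0.987 and 0.317 FPKM with vehicle and at 3.16, 2.82 and 0 FPKM with PTH. *Vwf*, the ligand of GPIb and chosen after its values were seen, was at 0.145, 0.138 and 0.176 FPKM with vehicle and at 3.48, 2.48 and 0.0389 FPKM with PTH; endothelial cells also make it.

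Of the 7 signalling, enzyme and cytoskeletal genes tested, *Gng11*, a G protein gamma chain found in many cells, was called, at 29.3, 32.2 and 26.4 FPKM with vehicle and at 44.5, 41.1 and 43.5 FPKM with PTH (log2 difference 0.54 ± 0.11, SE, n = 3 per group, limma adjusted p = 0.0243). Unlike in the 8 genes, PTH replicate 3 was between the other PTH libraries. *Plek*, pleckstrin, a protein kinase C substrate of platelets and leukocytes, was at 1.44, 2.34 and 1.14 FPKM with vehicle and at 17.7, 13.1 and 1.68 FPKM with PTH, with an adjusted p of 0.118 in the limma fit. *Fermt3*, the kindlin of blood cells, was at 9.60, 14.5 and 5.40 FPKM with vehicle and at 12.4, 8.97 and 0.609 FPKM with PTH, so it was abundant with vehicle, where the 8 genes were scarce, and lowest in PTH replicate 3.

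Of the 8 transcription factors, *Nfe2*, needed for platelet release, was called. It was at 0.750, 0.544 and 0.320 FPKM with vehicle and at 4.12, 3.42 and 1.22 FPKM with PTH, a log2 difference of 1.27 ± 0.33 (SE, n = 3 per group, limma adjusted p = 0.0448). Like *F5*, it reached 1 FPKM in PTH libraries alone. *Runx1* and *Fli1*, which other cells of bone also express, had log2 differences of 0.07 ± 0.16 and -0.05 ± 0.10 (SE, n = 3 per group, limma adjusted p = 0.783 and 0.774). *Gata1*, chosen after its values were seen, was at 0.293, 0.870 and 0.658 FPKM with vehicle and at 2.19, 2.34 and 0.279 FPKM with PTH. Each of the calls for *F5*, *Rab27b* and *Nfe2* was lost when any single library other than PTH replicate 3 was left out, and that for *Gng11* when PTH replicate 1 or vehicle replicate 1 or 2 was. Without vehicle replicate 1 or 2, only 1 and 0 of all 13004 tested genes were called. *F5* and *Nfe2* were also among the rows out of alphabetical order that are described with the processing.

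**Figure D2:**
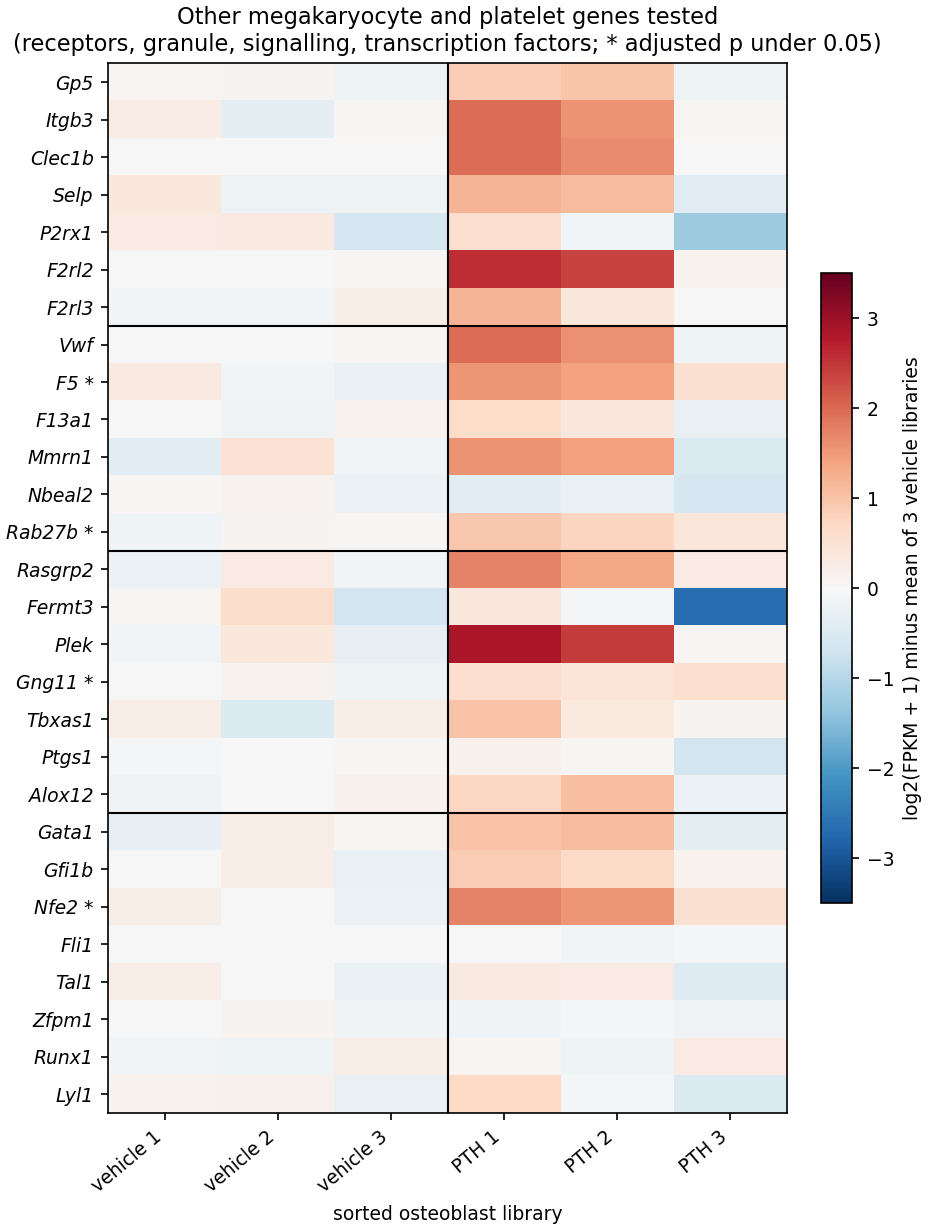
Each row is a tested gene of the 4 other lists (top to bottom receptors, granule, signalling, transcription factors) and each column a sorted osteoblast library; colour is log2(FPKM + 1) minus the mean of the 3 vehicle libraries, and an asterisk marks an adjusted p under 0.05. Red fills the columns of PTH replicates 1 and 2 for most receptors and granule genes, the column of PTH replicate 3 is mostly pale, and Fli1, Zfpm1 and Runx1 are pale throughout.

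Signals by which bone and marrow cells act on megakaryocytes were given as a separate list of 8 genes, 7 of them tested. Of these, 2 were called, both higher, beside 15.2% of all tested genes called in either direction. *Il11*, a cytokine that raises platelet production, was at 6.13, 6.75 and 6.39 FPKM with vehicle and at 13.6, 11.4 and 12.3 FPKM with PTH (log2 difference 0.86 ± 0.11, SE, n = 3 per group, limma adjusted p = 0.0139). *Vegfa*, the vascular growth factor, was at 114, 109 and 130 FPKM with vehicle and at 157, 196 and 204 FPKM with PTH (log2 difference 0.65 ± 0.13, SE, n = 3 per group, limma adjusted p = 0.0251). In both genes PTH replicate 3 was within the range of the other PTH libraries or above it, unlike the 8 platelet genes. Without vehicle replicate 1 or without vehicle replicate 2, where 1 and 0 of all 13004 genes were called, the count was 0, and it was 1 without PTH replicate 2. *Thpo*, thrombopoietin, was below the minimum, at no more than 0.0967 FPKM with vehicle and between 0.243 and 0.340 FPKM with PTH. *Cxcl12*, *Kitl*, *Il6*, *Angpt1* and *Bmp4* were not called, with log2 differences of 0.11, 0.22, 0.40, 0.64 and 0.46.

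Over the 6 sorted libraries, 8615 other genes that reached 5 FPKM in 1 library or more were compared with the mean log2(FPKM + 1) of the 8 genes. The 10 most alike, all with Pearson's r between 0.987 and 0.996, were *F2rl2*, *Ly6c2*, *Col9a3*, *Eid1*, *Ctsg*, *Plek*, *Mpo*, *Chi3l3*, *Tmem40* and *Elane*. With 6 points, of which 2 stand far from the rest, r describes which libraries were high and little else, and 42 genes had an r above 0.95. *F2rl2* and *Plek* are of the lineage lists, whereas *Elane*, *Mpo* and *Ctsg* encode azurophil granule proteins of neutrophils and their precursors and *Col9a3* a cartilage collagen. *Elane* was at 6.59, 6.98 and 5.25 FPKM with vehicle and at 73.7, 44.9 and 7.36 FPKM with PTH. *Col9a3* was at 3.08, 3.31 and 2.66 FPKM with vehicle and at 15.9, 14.2 and 2.96 FPKM with PTH.

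**Figure D3:**
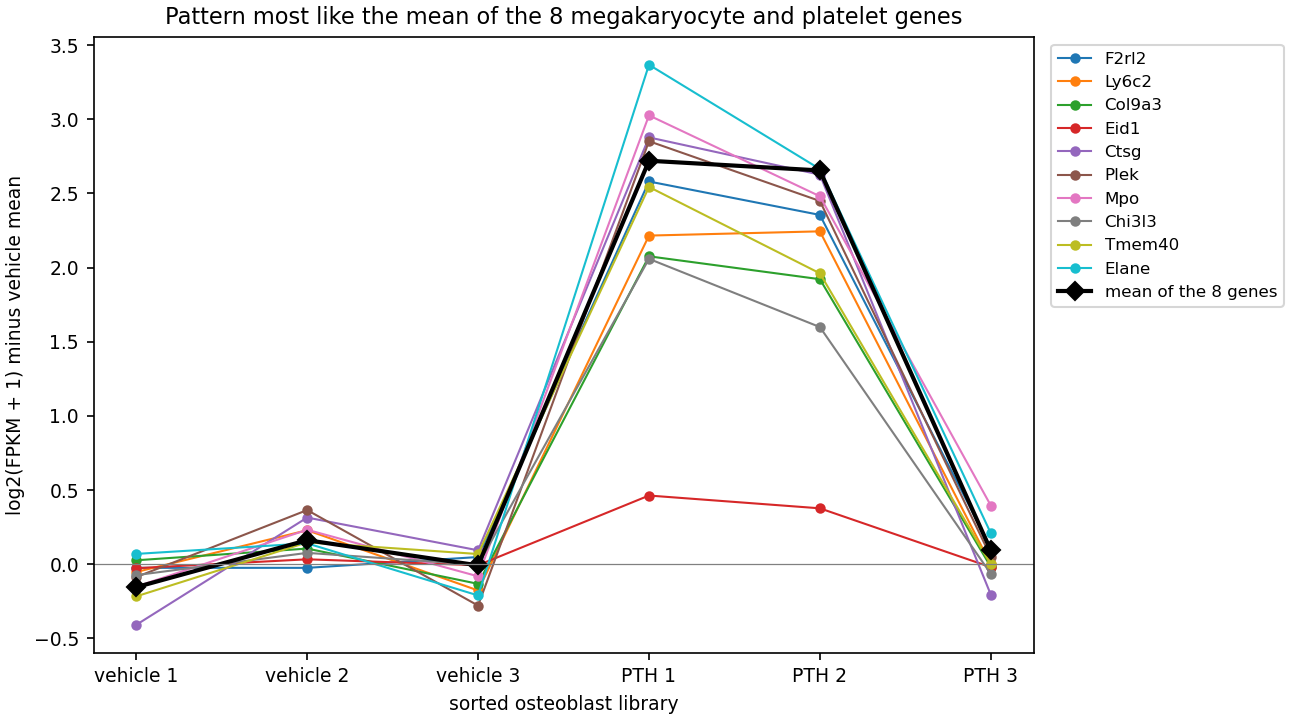
The plot gives log2(FPKM + 1) minus the mean of the vehicle libraries for the 10 genes with the highest Pearson's r to the mean of the 8 megakaryocyte and platelet genes (black), by sorted osteoblast library; lines join the values of 1 gene, and the libraries of a group have no order. All lines are highest in PTH replicates 1 and 2 and near 0 in PTH replicate 3, with Eid1 the flattest.

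Markers of other cells were summed by list in the same libraries. The 9 neutrophil genes listed, of 10, summed to between 353 and 443 FPKM with vehicle and to 2227, 1862 and 654 FPKM with PTH, and in 7 of the 9, *S100a8* and *S100a9* among them, every PTH library was above every vehicle library. The 8 monocyte and macrophage genes summed to between 48.3 and 78.0 FPKM with vehicle and to 120, 111 and 36.8 FPKM with PTH, and in PTH replicate 1 *Lyz2*, which neutrophils also express, made up 96.2 FPKM of it. Its genes did not go one way: *Csf1r* was at 0.341, 1.03 and 1.15 FPKM with vehicle and at 2.21, 2.14 and 1.03 FPKM with PTH, *Emr1* and *Cd68* did not exceed their highest vehicle library, and *Cx3cr1*, named after its values were seen, was at 7.86, 7.62 and 4.18 FPKM with vehicle and at 1.15, 1.74 and 0.0317 FPKM with PTH. The neutrophil sum, like that of the 8 genes, was highest in PTH replicates 1 and 2, and in PTH replicate 3 it was still above all vehicle libraries.

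*Ptprc*, the gene of CD45, against which the cells were sorted, was at 56.9, 59.2 and 35.9 FPKM with vehicle and at 10.1, 8.53 and 0.930 FPKM with PTH. The 7 T cell genes listed, of 8, summed to between 87.9 and 136 FPKM with vehicle and to 12.7, 17.8 and 0.716 FPKM with PTH; in PTH replicate 3 the defining *Cd3e*, *Cd3g* and *Cd3d* were listed at 0. The 8 mast cell and basophil genes summed to between 50.5 and 77.4 FPKM with vehicle, most of it *Cpa3*, and to 16.5, 15.7 and 5.67 FPKM with PTH, with *Fcer1a* and *Ms4a2* listed at 0 in all 6 libraries. In that list *Hdc*, histidine decarboxylase, named after its values were seen, was instead at 1.08, 1.74 and 1.18 FPKM with vehicle and at 5.61, 4.89 and 4.27 FPKM with PTH, and *Prss34* was at no more than 0.155 FPKM with vehicle and at 1.25, 1.49 and 0 FPKM with PTH. The 2 libraries in which the 8 genes were high thus had *Ptprc* below every vehicle library, as did PTH replicate 3, in which they were low.

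The 8 endothelial genes summed to between 5.20 and 7.32 FPKM with vehicle and to 6.32, 6.41 and 1.42 FPKM with PTH, and *Cdh5* did not exceed 0.407 FPKM. The 8 erythroid genes, markers of cells that share a precursor with megakaryocytes, summed to between 185 and 202 FPKM with vehicle and to between 213 and 254 FPKM with PTH, most of it *Hba-a1*, while *Klf1* was at no more than 1.68 FPKM. The 8 B cell genes summed to between 4.90 and 10.1 FPKM with vehicle and to between 9.36 and 14.3 FPKM with PTH, and *Cd79a* did not exceed 2.31 FPKM. The 8 heart muscle genes summed to 3431 FPKM in PTH replicate 2 and to no more than 19.3 FPKM elsewhere, whereas the 8 platelet genes were at like levels in PTH replicates 1 and 2. The part of any of these cells in the values of the 8 genes was not tested.

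**Figure D4:**
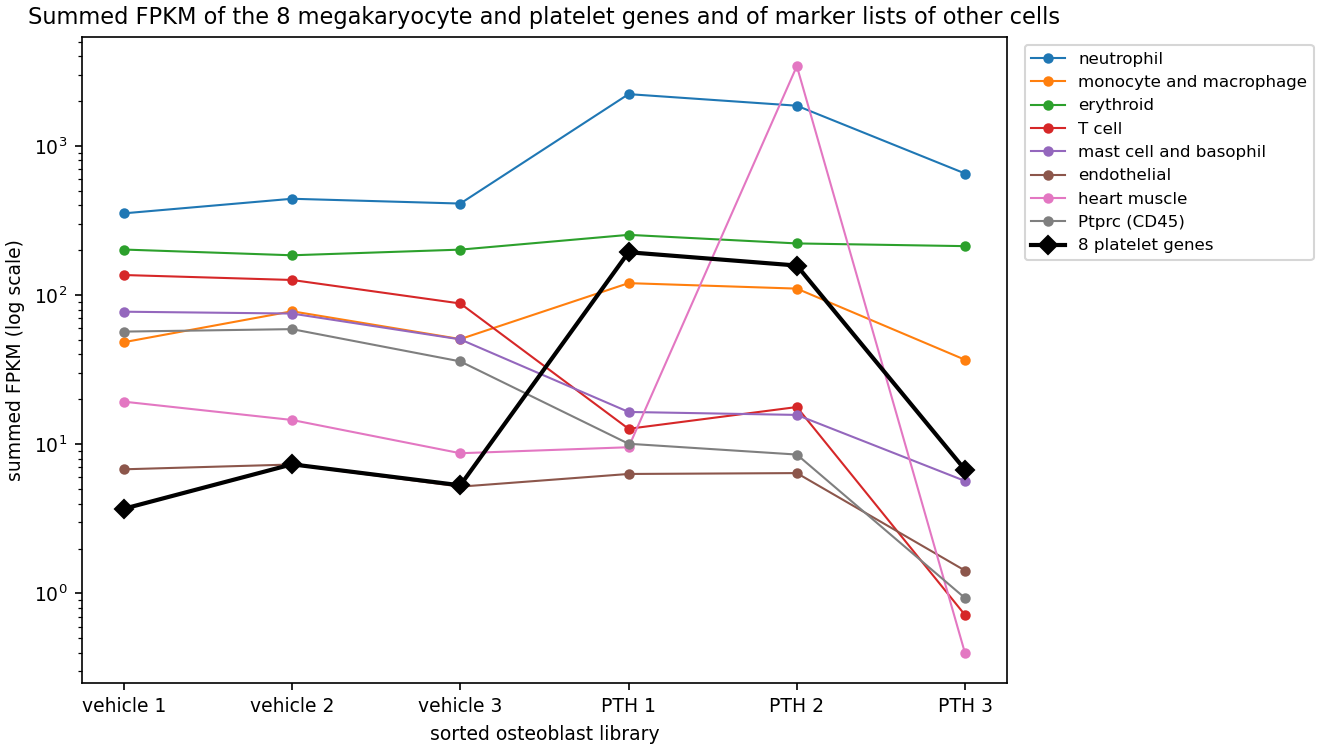
The plot gives summed FPKM, on a log axis, of the 8 megakaryocyte and platelet genes (black) and of marker lists of other cells by sorted osteoblast library; lines join the values of 1 list, and the libraries of a group have no order. The black line lies between 3.69 and 7.34 FPKM with vehicle, at 194 and 158 FPKM in PTH replicates 1 and 2 and at 6.74 FPKM in PTH replicate 3, the T cell and Ptprc lines are lower in all PTH libraries, and the heart muscle line has its peak in PTH replicate 2.

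MC3T3-E1 cells, a cultured line, give the level of the 8 genes in an osteoblastic line, and the comparison of *Slpi* with mock was not used to choose them. *Ptprc* was at no more than 0.016 FPKM there. Only *Itga2b* and *Gp1bb* reached an FPKM of 1 and were tested. *Pf4* was at 0.278, 0.187 and 0.511 FPKM in mock and at 0.210, 0 and 0.315 FPKM in *Slpi* cells, *Ppbp* was between 0.138 and 0.363 FPKM and *Gp1ba* between 0.055 and 0.312 FPKM. *Gp9* did not exceed 0.131 FPKM and *Treml1* 0.050 FPKM, and *Gp6* was listed at 0 in all 6 libraries.

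*Itga2b* was at 2.15, 2.06 and 2.18 FPKM in mock cells and at 1.87, 1.62 and 1.64 FPKM in *Slpi* cells, the groups not overlapping. It was thus above its level in each vehicle library and in PTH replicate 3 of the sorted cells, and below PTH replicates 1 and 2, although the experiments were normalized separately. The log2 difference between *Slpi* and mock was -0.21 ± 0.07 (SE, n = 3 per group, limma adjusted p = 0.0276). This call was lost under quantile normalization (limma adjusted p = 0.193), at a 2-fold requirement, and without mock replicate 1 or 3 or *Slpi* replicate 2 or 3, and over the alternatives the adjusted p ran from 0.0079 to 0.193. In this experiment 60.8% of all 11466 tested genes were called, and 28.9% of all tested genes were called lower, so 1 call among 2 genes is near the background.

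*Gp1bb* was at 5.56, 4.31 and 3.78 FPKM in mock cells and at 3.96, 3.62 and 3.69 FPKM in *Slpi* cells, with a log2 difference of -0.21 ± 0.11 (SE, n = 3 per group, limma adjusted p = 0.120), and the groups overlapped. The difference was -0.08 without mock replicate 1 and -0.31 without mock replicate 3. It was called in the latter case (limma adjusted p = 0.0285), and over the alternatives its adjusted p ran from 0.0285 to 0.402. *Sept5*, whose exons it shares, was at 61.1, 62.4 and 60.7 FPKM in mock cells and at 49.9, 49.4 and 48.6 FPKM in *Slpi* cells. *Itgb3* was between 10.6 and 11.2 FPKM in mock cells and between 10.4 and 11.3 FPKM in *Slpi* cells. The line thus held more of the beta-3 than of the alpha-IIb transcript, between 4.85 and 6.43 times. The sorted vehicle libraries also held more, 18.5, 4.64 and 12.3 times, as did PTH replicate 3, 4.55 times.

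Of the 35 genes of the other lineage lists, 10 were tested in MC3T3-E1 cells. In the limma fit 6 were called lower and 0 higher, beside 28.9% of all tested genes called lower and 60.8% called in either direction. At an unadjusted p under 0.05 the counts were also 6 and 0, beside 31% lower and 34% higher. The 6 were *Runx1*, *Nbeal2*, *Gng11*, *Nfe2*, *Ptgs1* and *Fli1*, with log2 differences of -0.54, -0.50, -0.46, -0.38, -0.36 and -0.23. *Ptgs1* encodes cyclooxygenase-1 and *Nbeal2* a protein of alpha granule formation, and both are also expressed outside the lineage. *Nfe2* and *Gng11* reached 1 FPKM in mock cells alone, so they entered the test through the group in which they were high. *Nfe2* was at 0.969, 1.07 and 0.746 FPKM in mock cells and at 0.533, 0.446 and 0.450 FPKM in *Slpi* cells, and the groups did not overlap. *F13a1*, *Rab27b* and *Zfpm1* were not called, with log2 differences of -0.04, 0.09 and -0.08. Of the niche signals, *Cxcl12*, *Kitl*, *Vegfa* and *Bmp4* were called lower in *Slpi* cells, by -0.49, -0.41, -0.13 and -0.48, and *Angpt1* higher, by 0.19, among 5 genes tested. In either direction 60.8% of all tested genes were called.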

How the data were processed

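RNA-Seq values of 12 libraries were analysed, 3 each of vehicle, PTH, mock and *Slpi*. The authors deposited FPKM per gene symbol, which according to the methods and the submitters' processing notes were made from 75-base single-end reads aligned by TopHat 2.0.13 (mm10; Bowtie2 2.2.3; SAMtools 0.1.19) and quantified by Cuffnorm of Cufflinks 2.2.1. The annotation and the scaling option are not given in the sources used here. Sorted cells were amplified with SMART-Seq v. 4; for MC3T3-E1 cells the labels give a stranded mRNA kit and the methods SMART-Seq. In the sorted osteoblast files 1355 rows were out of alphabetical order, *Ppbp*, *Gp1bb*, *F5*, *Pdgfb* and *Nfe2* among them, in the same order in all 6 files. They ran mostly from the highest to the lowest change with PTH (Spearman's rho = -0.812 between log2 difference and position, across genes), and 75% of their 1120 tested genes were called, against 9.6% of the other 11884. Across genes, the size of 1 FPKM step still correlated with transcript length in such rows (r = 0.521, 425 genes; 0.712 in 327 rows in order), but single rows could not be checked against reads.

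Values were compared within each experiment on log2(FPKM + 1) by limma 3.58.1 (R 4.3.3; eBayes with trend), for genes that reached 1 FPKM in 1 or more of the 6 libraries, with Benjamini-Hochberg adjustment over all genes tested and calls at 0.05. Implied reads assume that the smallest step of a gene's FPKM is 1 read, to a tolerance of 0.06 of a step, and could not be read for *Gp1bb* and *Treml1*. They are the smallest whole numbers that fit, so true read numbers can be multiples of them. The method can fail for abundant genes: *Vegfa*, at 109 FPKM or more in every sorted library, was given between 6 and 20 reads. P-values weigh the difference between groups against the spread between libraries within groups. Whether the MC3T3-E1 replicates came from separate transductions is not given in the sources used here. Named genes were the 8, every called gene of the 4 other lists and the 2 most abundant uncalled tested ones of each, the niche signals, the first 3 markers of each list of other cells, and the 10 most alike; exceptions are stated where named. Values of 2 listed genes are not reported here. The 8 genes, the lists and the tests were chosen with earlier results of these data known. Upstream sequences were taken from RefSeq (GRCm38.p6), with a match for all 8 genes, and positions from GENCODE M21 (GRCm38).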

Additional observations from a re-analysis of the deposited data

How the results depend on the processing

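The number of other megakaryocyte and platelet genes called higher with PTH, 4, was 7 at a 2-fold change and an unadjusted p under 0.05, 2 without the eBayes trend and 0 with no filter on low values, where 18 of 23284 genes were called, and it ran from 0 to 15 when 1 library was left out. The number called lower was 0 in every alternative. The niche signals called, 2, were 0 at the 2-fold rule, 0 with no filter and 1 under quantile normalization, and ran from 0 to 2 with 1 library left out. In MC3T3-E1 cells the 1 member called was 0 at the 2-fold rule and 0 under quantile normalization, and ran from 0 to 1, and the 6 other lineage genes were 0 at the 2-fold rule and ran from 5 to 6. The median log2 difference of the 8 genes, 1.63, was 3.01 at a pseudocount of 0.1 and ran from 1.20 to 2.49 with 1 library left out. Over all genes, 1981 were called in sorted osteoblasts, 1 without vehicle replicate 1 and 0 without vehicle replicate 2; the cause was not tested. No single gene reversed. Among the alternatives for called genes and for *Gp1bb* in MC3T3-E1 cells, 150 of 209 kept their side of the threshold, 58 lost a call and 1 gained one.

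Replicate numbers were not taken as pairs, since deviations of same-numbered libraries from their group means correlated by 0.029, 0.074 and 0.10 in sorted osteoblasts and by 0.039, -0.052 and -0.00026 in MC3T3-E1 cells. With the replicate number as a block, the counts were 3 higher and 0 lower lineage genes and 2 niche signals with PTH, 1 member and 6 lineage genes with *Slpi*, and the median of the 8 genes was 1.63; among all genes 2262 were called. *Rab27b* was the lineage gene that lost its call with PTH under the block (limma adjusted p = 0.055, with a range over alternatives from 0.0268 to 0.144). Depth may limit the vehicle values of the 8 genes. Where steps could be read, each was 5 steps or fewer, which equals the reads only if 1 step is 1 read.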
